A study of Zea mays with 12 samples.

Results

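The genes described here encode the mitochondrial pentatricopeptide repeat (PPR) proteins of maize. They were chosen by the protein description in the deposited table, which had to contain both "pentatricopeptide repeat" and "mitochondrial". The rule found 98 genes among the 33589 genes listed, and no measured value entered it. RNA-seq was performed on embryos of 2 maize inbred lines. Line 55 is resistant to low temperature at germination, and line 102 is sensitive to it. Seeds of all groups took up water for 6 h at 25 °C and then stayed for 2 h at 25 °C (CT_55 and CT_102) or at 10 °C (LT_55 and LT_102), so the controls share the warm imbibition with the cold-treated seeds. Each of the 4 groups had 3 biological replicates, and each line stands for its phenotype alone, so that the line and its cold tolerance cannot be told apart. The question put to these libraries was which genes differ between a tolerant and a sensitive line, and which respond to cold.

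PPR proteins are built from tandem repeats of a short helical motif, and a row of such repeats binds 1 particular stretch of single-stranded RNA. Nearly all of them are encoded in the nucleus and imported into mitochondria or chloroplasts, where they edit, splice, cut, stabilize or help translate organelle transcripts, including those for subunits of the respiratory chain. In maize, loss of single mitochondrial PPR proteins often gives empty pericarp or defective kernel seeds, since the embryo and the endosperm depend on respiration.

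The table held 333 PPR genes in all, of which 49 were described as chloroplastic and 186 named no organelle. Of the 98 mitochondrial genes, 80 carried the name of an Arabidopsis locus in their description and 18 did not. The names covered 61 loci, and 14 loci were given to more than 1 maize gene (33 genes). The Arabidopsis names come from similarity in the annotation, so a role known in Arabidopsis is background for the maize gene and was not measured here. The annotation also carried terms that the rule did not use. The term mitochondrion stood in 60 of the 98 genes, RNA binding in 39, endonuclease activity in 33, RNA modification in 29 and chloroplast in 13. Another product was listed beside the PPR description in 4 genes. One of them is emp2, the maize empty pericarp 2 gene, which encodes a heat shock factor binding protein and not a PPR protein. The genes lay on all 10 chromosomes, from 5 on chromosome 9 to 16 on chromosome 3, and 1 lay on an unplaced sequence. Members overlapped each other in 2 places, and 18 genes overlapped another listed gene, 8 of them on the same strand. Whether the counting used the strand is not given in the sources used here, so reads of overlapping genes may not be separable.

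Library totals ran from 44028579 to 67873652 counts, and 0.0741% of all counts fell on the 98 genes. Embryo markers (11 genes of storage globulins, oleosins and the like) summed to 17418 to 20234 FPKM in CT_55 and 17939 to 20182 in LT_55, and to 28233 to 29925 in CT_102 and 22006 to 25928 in LT_102, where FPKM is the count divided by transcript length and library size. The 30 endosperm markers (zeins and other endosperm genes) summed to 25.5 to 43.3 FPKM in CT_55 and 27.2 to 36.3 in LT_55, but to 1.54 to 2.10 in CT_102 and 3.02 to 7.36 in LT_102. None of these markers was at 0 in all libraries. The sums of both lists moved with the line, in the same libraries as every line difference below. By gene, 9 of the 11 embryo markers were higher and 2 lower in line 102 at 25 °C, and 6 and 5 at 10 °C. Of the 30 endosperm markers, 5 passed the filter for the tests below, and all 5 were lower in line 102 at both temperatures. Within line 102 both sums also moved with the cold, the embryo sum downwards and the endosperm sum upwards, without overlap. The cold comparison in line 102 and the interaction use those same libraries. The part of both lists in any of these comparisons was not tested. In these bulk samples, fewer cells of a type and less RNA per cell cannot be told apart.

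Most mitochondrial PPR genes were below 10 FPKM in the embryo. The median of their mean FPKM was 2.51, against 2.07 for all listed genes, and 15 of the 98 genes (15.3%) reached 10 FPKM, against 29.8% of all listed genes. A further 49 lay between 1 and 10 FPKM and 34 lay below 1. A count was found in every one of the 12 libraries for 87 of the 98. Tests were limited to genes that reached 0.5 FPKM in 3 or more libraries, which 80 of the 98 (81.6%) and 68.4% of all listed genes passed. The 18 that did not pass had 2 to 966 counts over the 12 libraries together. Within a group of 3 replicates, the SD was a median of 15.1% to 19.4% of the mean over the 80 genes.

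**Figure D1:**
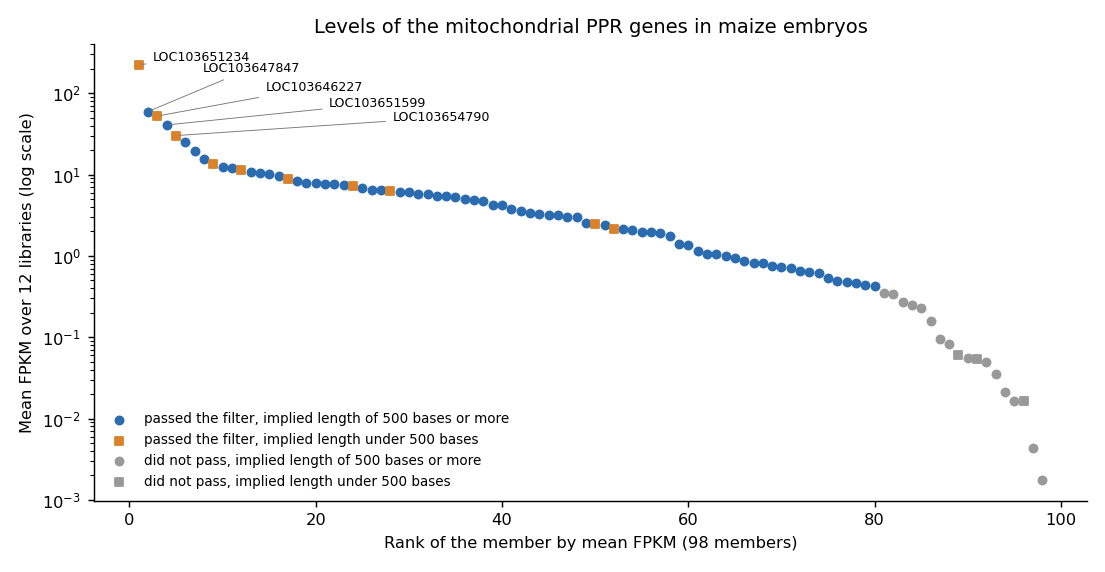
Mean FPKM over the 12 libraries (log scale) of the 98 mitochondrial PPR genes, ordered by level. Squares mark genes whose count and FPKM imply a length under 500 bases, and grey marks the 18 genes that did not pass the filter. The top gene stands at 224 FPKM, above the next at 59.5.

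The most abundant member was LOC103651234, described by At4g32450, which in Arabidopsis is the mitochondrial RNA editing factor MEF8S. It took 10.1% of all counts on the 98 genes. It had 231, 223 and 223 FPKM in the CT_55 libraries, 216, 214 and 221 in those of CT_102, 228, 240 and 241 in those of LT_55 and 219, 222 and 211 in those of LT_102. Its level was nearly flat across the 12 libraries. Line 102 was below line 55 without overlap at both temperatures, by a log2 fold change of -0.11 (SE 0.07; edgeR, adjusted p = 0.19) at 25 °C and -0.17 (SE 0.07; edgeR, adjusted p = 0.046) at 10 °C, too small for the fold threshold used here.

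The next levels were those of LOC103647847 (At1g63070) with a mean of 59.5 FPKM, LOC103646227 (At3g09040) with 52.5, LOC103651599 (At3g54980) with 40.8 and LOC103654790 with 30.2. The last is described by At1g51965, which in Arabidopsis is ABO5, a factor for splicing an intron of the nad2 transcript of respiratory complex I. LOC103646227, LOC103651599 and LOC103654790 passed the fold threshold between the lines at neither temperature. The order by FPKM depends on the length used. Count and FPKM together imply a length of 335 bases for LOC103651234, 214 for LOC103646227 and 201 for LOC103654790, whose loci span 3300, 5584 and 4760 bp. For LOC103647847 they imply 533 bases in a locus of 22406 bp. Over all 98 genes the implied length was under 500 bases in 13 (13.3%, against 10.7% of tested genes) and longer than the locus itself in another 13. CPM is the count scaled to the library total and uses no length. By CPM, LOC103651234 ranked 1, LOC103651599 ranked 3, LOC103647847 ranked 7, LOC103646227 ranked 18 and LOC103654790 ranked 32. The length is the same in each library to within 1.042-fold for the 45 genes with at least 100 counts in every library, so it does not enter a comparison between libraries.

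Between the lines, fewer of the members than of genes in general were called, and more of them were higher in line 102 than lower. A difference counted as a call from 1.5-fold upwards (0.585 on the log2 scale, in either direction) with an unadjusted p-value under 0.05 in edgeR's quasi-likelihood test, the threshold of the study. At 25 °C, 8 of the 80 tested members were lower and 19 higher in CT_102 than in CT_55. That is 33.8% of the members, against a percentage of 48.1 among all 22985 tested genes (23.8% lower and 24.3% higher). At 10 °C, 11 were lower and 19 higher in LT_102 than in LT_55, which is 37.5% against 51.1 for all tested genes (26.1% lower and 25.1% higher). The share of members that were higher was close to the background at both temperatures, and the share that were lower, 10% and 13.8%, was below it. With the adjusted p-value in place of the unadjusted one, 7 members were lower and 18 higher at 25 °C and 9 and 19 at 10 °C, where the percentages of all tested genes were 46.6 and 49.8. The median log2 fold change of the members was 0.16 at 25 °C and 0.23 at 10 °C, against 0.01 and 0.00 for all tested genes. Their median absolute log2 fold change was 0.46 and 0.48, against 0.64 and 0.70. The 3 libraries of one line did not overlap those of the other in 43 members at 25 °C and 45 at 10 °C, where 66.6 and 69 percent of all tested genes did not. The members were measured less precisely than genes in general. Their median SE was 0.241 at 25 °C and 0.24 at 10 °C, against 0.194 and 0.193 for all tested genes. How far this lower precision reduced the share called or the share without overlap was not tested.

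Most calls were shared by both temperatures, each of which has its own libraries. Of the 80 members, 16 were higher in line 102 at both temperatures and 7 were lower at both. These are 20% and 8.75% of the members, against percentages of 21 and 21.5 among all tested genes. No member was called in opposite directions, and only 0.0392% of all tested genes (9 genes) were. Of the members called at 1 temperature and not the other, 4 were lower and 3 higher at 10 °C, and 1 was lower and 3 higher at 25 °C, and no member was called for the interaction. These shares (5%, 3.75%, 1.25% and 3.75%) were near those of all tested genes (4.51%, 4%, 2.27% and 3.22%). The other 46 members (57.5%, against 43.4% of all tested genes) were called at neither temperature. The median FPKM over the 80 members was 2.44 to 3.26 in the 6 libraries of line 55. In the 6 libraries of line 102 it was 4.01 to 4.93, while the median over all tested genes ran from 6.54 to 7.20. The FPKM summed over the members without LOC103651234 overlapped between the lines. It was 554 to 559 in CT_55, 489 to 584 in CT_102, 523 to 606 in LT_55 and 529 to 576 in LT_102. The summed CPM of all members overlapped at 25 °C (687 to 715 in CT_55, 712 to 801 in CT_102). At 10 °C it did not (655 to 762 in LT_55, 765 to 811 in LT_102). The median log2 fold change by gene was 0.16 at 25 °C and 0.23 at 10 °C. The median FPKM alone thus does not show a family-wide rise.

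**Figure D2:**
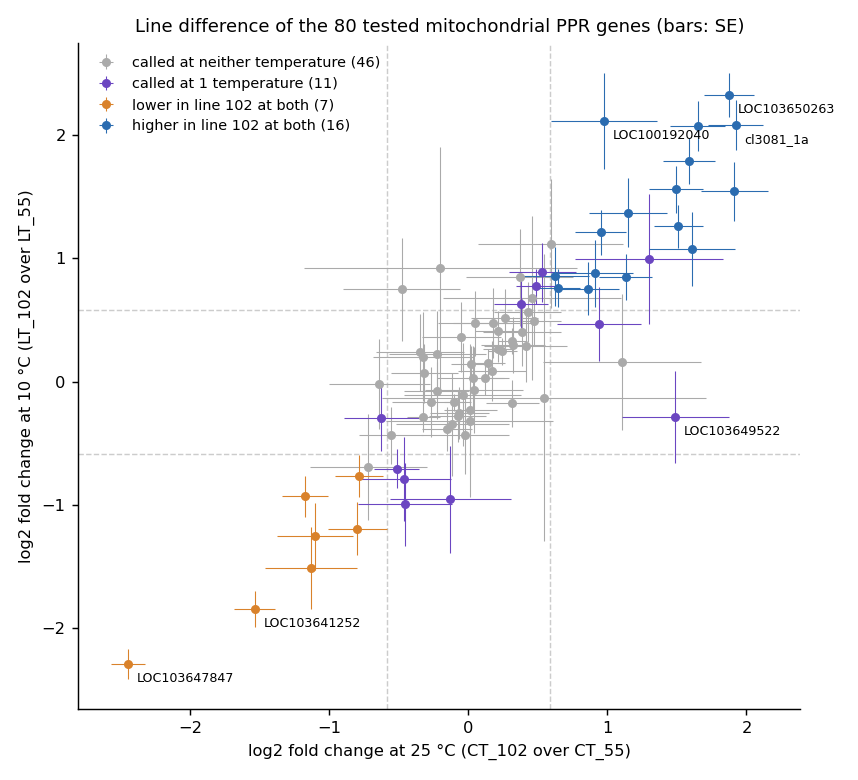
Log2 fold change of line 102 over line 55 at 25 °C (horizontal) and 10 °C (vertical) for the 80 tested members, with SE bars and dashed lines at the 1.5-fold threshold. The 16 members higher at both temperatures and the 7 lower at both lie in opposite corners, and no member was called in opposite directions.

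Among the members lower in line 102, LOC103647847 stood furthest out. It lies at chr2:217973405-217995810 on the plus strand (B73 RefGen_v4) and is described by At1g63070, a locus of the restorer-of-fertility-like group, whose Arabidopsis members are needed to process the 5′ ends of mitochondrial transcripts. It had 81.2, 96.7 and 111 FPKM in CT_55 and 109, 95.8 and 101 in LT_55. In line 102 it had 19.0, 19.6 and 16.3 FPKM in CT_102 and 23.3, 20.5 and 20.8 in LT_102. All 6 libraries of line 55 were more than 3 times above all 6 of line 102. The log2 fold change was -2.45 (SE 0.12; edgeR, adjusted p = 9.7e-09) at 25 °C and -2.29 (SE 0.12; edgeR, adjusted p = 1.3e-08) at 10 °C.

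LOC103641252 (At1g07590) on chromosome 10 followed. It had 7.23, 7.98 and 7.83 FPKM in CT_55 and 7.85, 9.76 and 8.90 in LT_55, against 2.81, 2.93 and 2.45 in CT_102 and 2.70, 2.83 and 2.06 in LT_102. The lines were apart in every library, with a log2 fold change of -1.54 (SE 0.15; edgeR, adjusted p = 2.1e-06) at 25 °C and -1.85 (SE 0.15; edgeR, adjusted p = 4.2e-07) at 10 °C. LOC103641122 (At5g66500), also on chromosome 10, had 8.25, 11.6 and 10.4 FPKM in the CT_55 libraries, 5.18, 5.23 and 3.75 in those of CT_102, 9.91, 12.4 and 8.96 in those of LT_55 and 2.22, 4.10 and 4.63 in those of LT_102. These levels rest on 16 to 112 counts a library and on an implied length of 145 bases in a locus of 1844 bp. Its groups did not overlap, and the log2 fold changes were -1.13 (SE 0.33; edgeR, adjusted p = 0.010) and -1.51 (SE 0.33; edgeR, adjusted p = 0.0017).

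The other named members on the lower side had smaller differences than LOC103647847 and LOC103641252, which still separated the libraries of the lines at both temperatures. LOC100304347 (At5g61370) on chromosome 1 had 10.6 to 15.97 FPKM in line 55 and 4.11 to 8.18 in line 102, with log2 fold changes of -1.10 and -1.26 (edgeR, adjusted p = 0.0037 and 0.0015). Its row in the table also lists an uncharacterized product, so that the counts may not all belong to the PPR transcript. LOC100502439 on chromosome 1 had 8.48 to 11.95 FPKM in line 55 and 3.95 to 6.33 in line 102, with log2 fold changes of -1.18 and -0.93 (edgeR, adjusted p = 6.1e-05 and 0.00033). LOC103627674 (At4g16835) on chromosome 5 had 8.65 to 13.2 FPKM in line 55 and 4.14 to 7.34 in line 102, with log2 fold changes of -0.80 and -1.19 (edgeR, adjusted p = 0.0060 and 0.00038). It shares 351 bp with a cellulose synthase-like gene on the other strand that holds 19231 counts, against its own 4668.

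Among the members higher in line 102, LOC103650263 had the largest difference at 10 °C. It lies at chr3:112358954-112369029 on the minus strand and is described by At5g16640, again a locus of the restorer-of-fertility-like group. It had 1.18, 1.26 and 1.23 FPKM in the CT_55 libraries, 5.23, 5.18 and 3.57 in those of CT_102, 1.39, 1.31 and 1.02 in those of LT_55 and 6.22, 5.46 and 7.59 in those of LT_102. Every library of line 102 was above every library of line 55. The log2 fold change was 1.87 (SE 0.18; edgeR, adjusted p = 2.0e-06) at 25 °C and 2.33 (SE 0.18; edgeR, adjusted p = 3.0e-07) at 10 °C. The row of this gene also carries a methyltransferase term, and the locus shares 407 bp with a gene on the other strand that holds 2645 counts, against its own 7642. At 10 °C the members furthest apart in either direction thus both carry the name of this group. The other members named by loci of this group, grouped after their values were seen, were low. LOC103626265 is described with the known roles below. LOC103646123 (At3g22470) had 1.48 to 2.72 FPKM over the 12 libraries and was not called, and LOC109942889 (At5g16640) and LOC109942479 had 18 and 6 counts in all.

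LOC103632023 on chromosome 7 is described by At5g64320, which in Arabidopsis is MTL1, needed to translate the nad7 transcript of respiratory complex I. It had 4.22, 3.55 and 3.01 FPKM in the CT_55 libraries, 11.2, 11.8 and 11.98 in those of CT_102, 3.52, 3.65 and 2.07 in those of LT_55 and 14.2, 12.1 and 13.9 in those of LT_102. The lines did not overlap, and the log2 fold change was 1.65 (SE 0.20; edgeR, adjusted p = 1.6e-05) at 25 °C and 2.07 (SE 0.20; edgeR, adjusted p = 2.3e-06) at 10 °C. The gene cl3081_1a on chromosome 3 had 3.03, 2.95 and 1.99 FPKM in the CT_55 libraries, 12.5, 8.94 and 9.91 in those of CT_102, 2.52, 2.69 and 1.88 in those of LT_55 and 9.05, 10.2 and 11.7 in those of LT_102. Here too all of line 102 was above all of line 55, by 1.92 (SE 0.20; edgeR, adjusted p = 4.1e-06) and 2.08 (SE 0.20; edgeR, adjusted p = 1.9e-06) on the log2 scale.

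LOC103629949 (At5g13230) on chromosome 6 had 1.27 to 1.74 FPKM in line 55 and 3.97 to 5.64 in line 102, with log2 fold changes of 1.58 and 1.79 (edgeR, adjusted p = 1.3e-05 and 4.1e-06). LOC100274557 on chromosome 5 had 1.76 to 2.49 FPKM in line 55 and 5.24 to 11.5 in line 102, with log2 fold changes of 1.91 and 1.54 (edgeR, adjusted p = 2.2e-05 and 0.00011). Both were higher in line 102 in every library. LOC100192040 on chromosome 5 had 3.92, 1.75 and 1.44 FPKM in the CT_55 libraries, 4.06, 5.08 and 5.43 in those of CT_102, 2.05, 1.79 and 1.38 in those of LT_55 and 6.08, 5.25 and 12.5 in those of LT_102. The high CT_55 library nearly reached the lowest CT_102 library. The table lists 31 transcripts for this locus and a cinnamoyl-CoA reductase term beside the PPR description. The log2 fold change was 0.97 (SE 0.38; edgeR, adjusted p = 0.042) at 25 °C, where the call was lost without CT_55 replicate 2 (0.81), CT_55 replicate 3 (0.73), CT_102 replicate 2 (0.94) or CT_102 replicate 3 (0.87), and without CT_55 replicate 1 the value rose to 1.52. At 10 °C it was 2.11 (SE 0.39; edgeR, adjusted p = 0.00046).

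**Figure D3:**
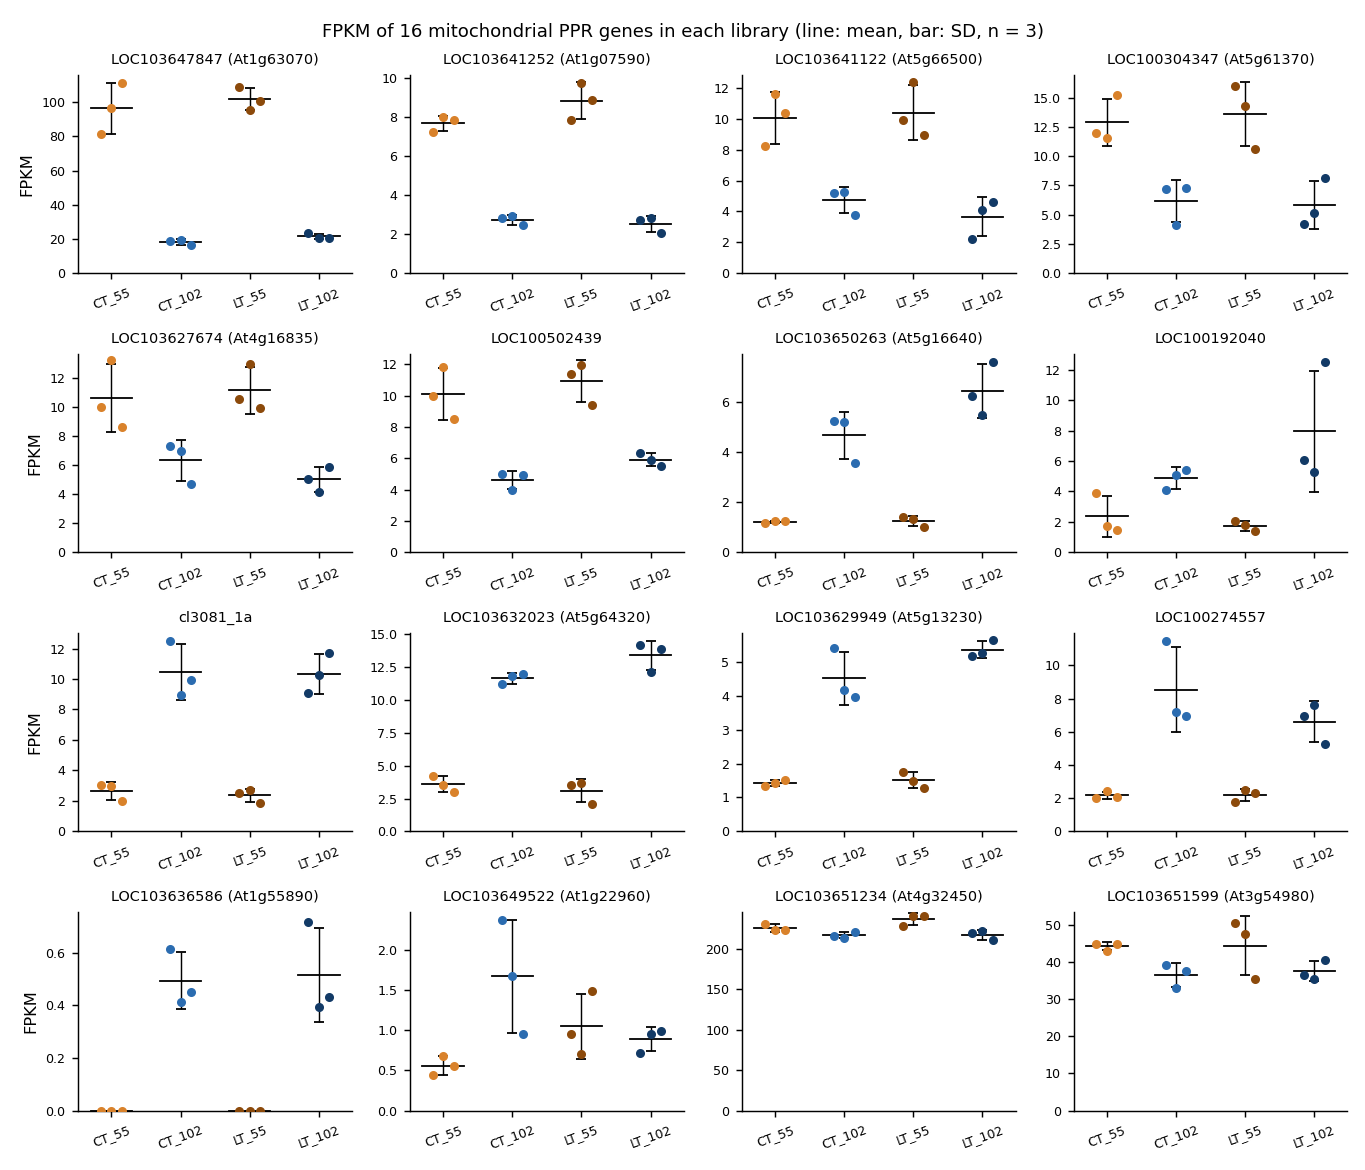
FPKM in each library for 16 members, with 3 points, the mean (line) and the SD (bar) for each group and axes that start at 0. The first 6 panels show the members lower in line 102 and the next 6 those higher. LOC103636586 is at 0 in all 6 libraries of line 55, and LOC103651234 stays between 211 and 241 FPKM.

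The annotation terms, which the rule did not use, give another view of the same calls. Of the 24 tested members with the term RNA modification, the term given to editing factors, 1 was lower and 6 were higher in line 102 at 25 °C, and 3 and 6 at 10 °C. The share that were higher was thus close to the 24.3% and 25.1% of all tested genes. Of the 56 tested members without it, 7 were lower and 13 higher at 25 °C, and 8 and 13 at 10 °C. The median log2 fold change was 0.18 and 0.27 with the term and 0.14 and 0.18 without it. The term seed germination stood in 4 members, LOC100192040, LOC100274557, LOC109940007 and emp2, which were picked out after their values were seen. The first 3 were higher in line 102 at both temperatures, as were 21% of all tested genes. LOC109940007 had 5.94 to 8.82 FPKM in line 55 and 9.38 to 19.7 in line 102, with log2 fold changes of 0.63 and 0.85 (edgeR, adjusted p = 0.038 and 0.0074), and at 25 °C its call was lost without CT_55 replicate 3 (0.48) or CT_102 replicate 1 (0.46). For emp2 the log2 fold changes were 0.24 and 0.25, below the threshold.

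LOC103646293 is described by At1g06710, which is MTSF1, a factor that stabilizes the nad4 transcript. It had 5.73, 5.91 and 7.13 FPKM in the CT_55 libraries, 15.4, 11.5 and 8.90 in those of CT_102, 5.69, 6.46 and 6.77 in those of LT_55 and 13.1, 9.67 and 10.3 in those of LT_102. It was higher in line 102 without overlap, by a log2 fold change of 0.86 (SE 0.22; edgeR, adjusted p = 0.0044) at 25 °C and 0.75 (SE 0.22; edgeR, adjusted p = 0.0090) at 10 °C. LOC103627548 is described by At1g74900, which is OTP43, needed to splice an intron of nad1. It had 0.604 to 1.66 FPKM over the 12 libraries, with log2 fold changes of -0.02 (SE 0.32) and -0.43 (SE 0.32) and overlapping groups. LOC103650031 and LOC103632127, both described by At1g80270, which is PPR596, had 4.85 to 9.75 and 0.0643 to 0.920 FPKM, and neither was called.

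LOC103626265 is described by At1g12700, which is RPF1, a factor for the 5′ end of the nad4 transcript. It had 0.126, 0.224 and 0.521 FPKM in the CT_55 libraries, 0.894, 0.650 and 0.708 in those of CT_102, 0.502, 0.294 and 0.112 in those of LT_55 and 0.595, 0.760 and 0.5005 in those of LT_102. It passed the filter mainly through line 102, since most line 55 libraries were below 0.5 FPKM. Its log2 fold change at 25 °C was 1.30 (SE 0.53; edgeR, adjusted p = 0.051), past the threshold by the unadjusted p-value of edgeR only. That call was lost without CT_55 replicate 1 (0.96) or 2 (1.15) and without CT_102 replicate 1 (1.18) or 3 (1.32), and without CT_55 replicate 3 the value rose to 2.01. At 10 °C it was 0.99 (SE 0.53; edgeR, adjusted p = 0.12) with overlapping libraries, and passed the threshold without LT_55 replicate 1 (1.57) or CT_55 replicate 3 (1.01), with a range of 0.62 to 1.57 over the libraries left out.

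SLO1, an Arabidopsis editing factor whose loss slows growth, lent its locus At2g22410 to 3 maize genes. LOC103651080 had 6.49 to 9.27 FPKM over the 12 libraries and log2 fold changes of 0.14 and 0.15 (SE 0.12 each), below the threshold. LOC103629909 and LOC103626239 did not pass the filter and were tested only in a fit with no filter. In LOC103629909 the libraries of CT_55 held 101, 103 and 74 counts and those of LT_55 135, 129 and 122, against 43, 43 and 46 for CT_102 and 42, 59 and 69 for LT_102. It was thus lower in line 102 in every library, by a log2 fold change of -1.25 (edgeR without a filter, adjusted p = 0.00254) at 25 °C and -1.05 (adjusted p = 0.00671) at 10 °C. In LOC103626239 the libraries of CT_55 held 6, 12 and 0 counts and those of LT_55 16, 4 and 4, against 47, 65 and 45 for CT_102 and 35, 64 and 42 for LT_102. Its libraries were apart in the other direction (2.95 and 2.63 on the log2 scale, edgeR without a filter, adjusted p = 0.0106 and 0.0168).

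One member below the filter was counted in line 102 only. LOC103636586 is described by At1g55890 and lies on chromosome 8. It had 0 counts in all 6 libraries of line 55, 159, 102 and 114 counts in CT_102, and 153, 103 and 112 in LT_102. Its level in line 102 was 2.23 ± 0.494 CPM (SD, n = 3) at 25 °C and 2.33 ± 0.795 at 10 °C. Set against a floor of 3 counts in each line 55 library, line 102 was at least 38.1-fold higher at 25 °C and, at 10 °C, at least 48.4-fold higher, counting error only. It was picked out after its values were seen, and it reached 0.5 FPKM in 2 libraries only. Its count and FPKM imply 4526 bases for a locus of 1707 bp. Of all 33589 listed genes, 155 (0.461%) had no count in line 55 and at least 100 in each library of line 102. Among the 98 members it was the only such gene, and no member had the reverse pattern. In the fit with no filter, 1 of the 18 members below the filter was called lower and 4 were called higher in line 102 at each temperature. The share of all genes called in that fit is not given here, so these counts cannot be set against a background.

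Maize genes that share an Arabidopsis name moved together in some cases and apart in others. The clearest split, chosen after the values were seen, was At4g16835. LOC103627674 was lower in line 102 as given above, whereas LOC103651543 on chromosome 3 had 0.275, 0.231 and 0.187 FPKM in the CT_55 libraries, 0.828, 0.631 and 0.761 in those of CT_102, 0.210, 0.388 and 0.281 in those of LT_55 and 0.691, 0.446 and 0.788 in those of LT_102. It was higher in line 102 without overlap, with log2 fold changes of 1.61 (SE 0.31; edgeR, adjusted p = 0.00068) and 1.08 (SE 0.30; edgeR, adjusted p = 0.0078). LOC103651543 reached 0.5 FPKM in libraries of line 102 only. It thus passed the filter through the line where it was higher, and its calls are not independent of that filter. The pair also differed in level by FPKM, since LOC103651543 never reached 1 FPKM and LOC103627674 never fell below 4. The size of that gap depends on the length used. Count and FPKM imply 3997 bases for LOC103651543, whose locus spans 1611 bp, and 828 for LOC103627674, whose locus spans 2738 bp. By CPM, which uses no length, their means were 1.90 and 6.86.

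Both genes named At2g26790 were on the higher side. LOC103650710 had 2.82 to 4.61 FPKM in line 55 and 7.98 to 10.4 in line 102 (log2 fold changes of 1.51 and 1.26; edgeR, adjusted p = 1.2e-05 and 4.8e-05). LOC103641135 had 0.53 at 25 °C, just under the fold threshold, and 0.89 at 10 °C (edgeR, adjusted p = 0.073 and 0.0058). Both genes named At4g14050 were called lower in line 102 at 10 °C, LOC103630373 by -0.996 and LOC103630631 by -0.71 on the log2 scale (edgeR, adjusted p = 0.021 and 0.0021). At 25 °C their libraries did not overlap either, in the same direction, but the log2 fold changes of -0.45 and -0.52 (edgeR, adjusted p = 0.26 and 0.015) were below the fold threshold. The interactions were -0.54 and -0.19 (edgeR, unadjusted p = 0.28 and 0.42), so the temperatures were not shown to differ. The first of these calls was lost without LT_55 replicate 2 (-0.71), and the second gene was also past the threshold at 25 °C without CT_102 replicate 1 (-0.68).

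Of the 4 genes named At1g22960, LOC103654346 was higher in line 102 at both temperatures (0.95 and 1.21; edgeR, adjusted p = 0.00070 and 9.6e-05), LOC103649522 was called at 25 °C and not at 10 °C, with no call for the interaction (edgeR, adjusted p = 0.54), and LOC103640761 and LOC103651688 were called at neither temperature. LOC103651599 and LOC103651600, both named At3g54980, lie 22871 bp apart on chromosome 3. LOC103651600 had a log2 fold change of -0.79 at 10 °C with overlapping libraries (edgeR, adjusted p = 0.061), and the call was lost without LT_55 replicate 1 (-0.68), LT_55 replicate 2 (-0.66), LT_102 replicate 1 (-0.68) or LT_102 replicate 3 (-0.61). LOC103642182, named At2g03880, which in Arabidopsis is the editing factor REME1, was higher at 10 °C (0.63; edgeR, adjusted p = 0.013) but not without LT_55 replicate 3 (0.51), and passed the threshold at 25 °C only without CT_55 replicate 3 (0.59).

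**Figure D4:**
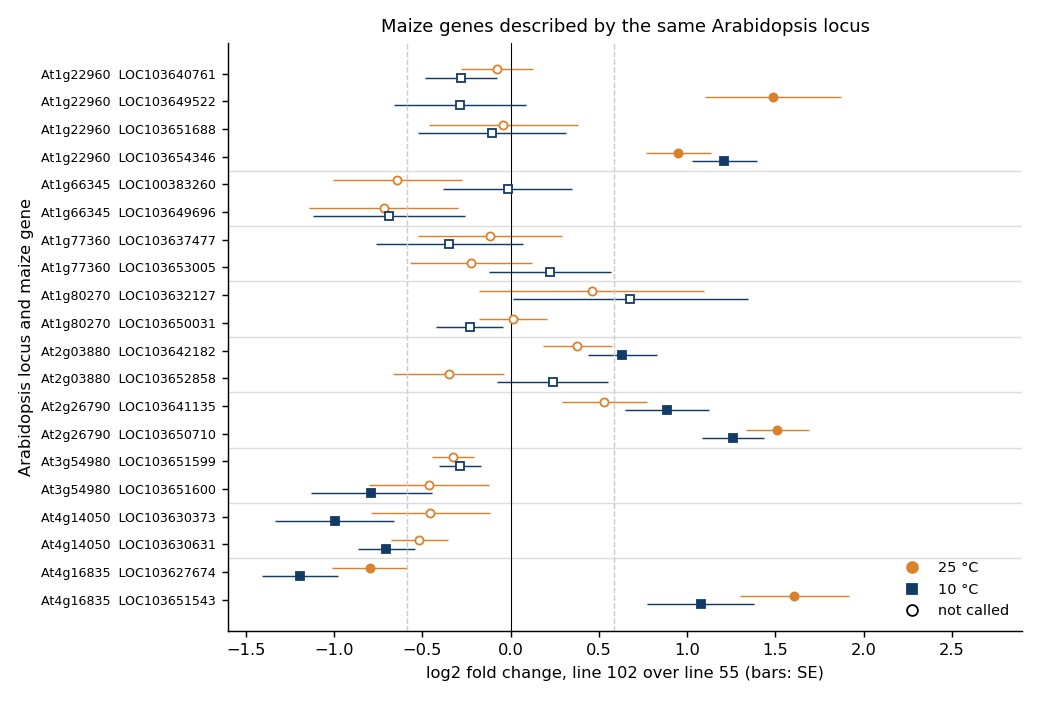
Log2 fold change of line 102 over line 55 at 25 °C (circles) and 10 °C (squares), with SE bars, for tested maize genes that share an Arabidopsis locus name. Filled symbols are called. The pair named At4g16835 lies on opposite sides of 0, and both genes named At2g26790 lie to the right.

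After 2 h at 10 °C no mitochondrial PPR gene was called in either line. At an adjusted p-value under 0.05 in edgeR, 0 of the 80 members passed in line 55, where 0.0522 percent of all tested genes did (12 genes). In line 102, 0 of the 80 passed, where 0.679 percent of all tested genes did (156 genes, 149 of them lower in the cold). These background shares would be under 1 gene in 80. At an unadjusted p-value under 0.05 in edgeR, 1 member passed in line 55 and 3 in line 102 (1.25% and 3.75%), against 4.43 and 13 percent of all tested genes. DESeq2 also gave 1 and 3 at an unadjusted p-value and 0 after adjustment. Libraries of the 2 temperatures did not overlap in 7 members in each line, against 7.23 percent of all tested genes in line 55 and 26.1 percent in line 102.

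The precision of these null results varied by gene. The log2 fold change of the members in the cold ran from -1.15 to 0.97 in line 55 and from -0.93 to 0.69 in line 102, with a median of 0.00 and 0.02 and a median SE of 0.24 in both. Over all tested genes the median SE was 0.19 in each line. The 95% interval lay within 1.5-fold in either direction for 33 of the 80 members in line 55 and 24 in line 102. These are 41.2% and 30% of the members, against 51.9% and 46.8% of all tested genes. The interval lay within 2-fold for 61 of the 80 in each line (76.2%, against 74.4% of all tested genes in line 55 and 71.5% in line 102). For the other 19 in each line, the interval reached past 2-fold, so a change of that size was not excluded at this depth and number of replicates.

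**Figure D5:**
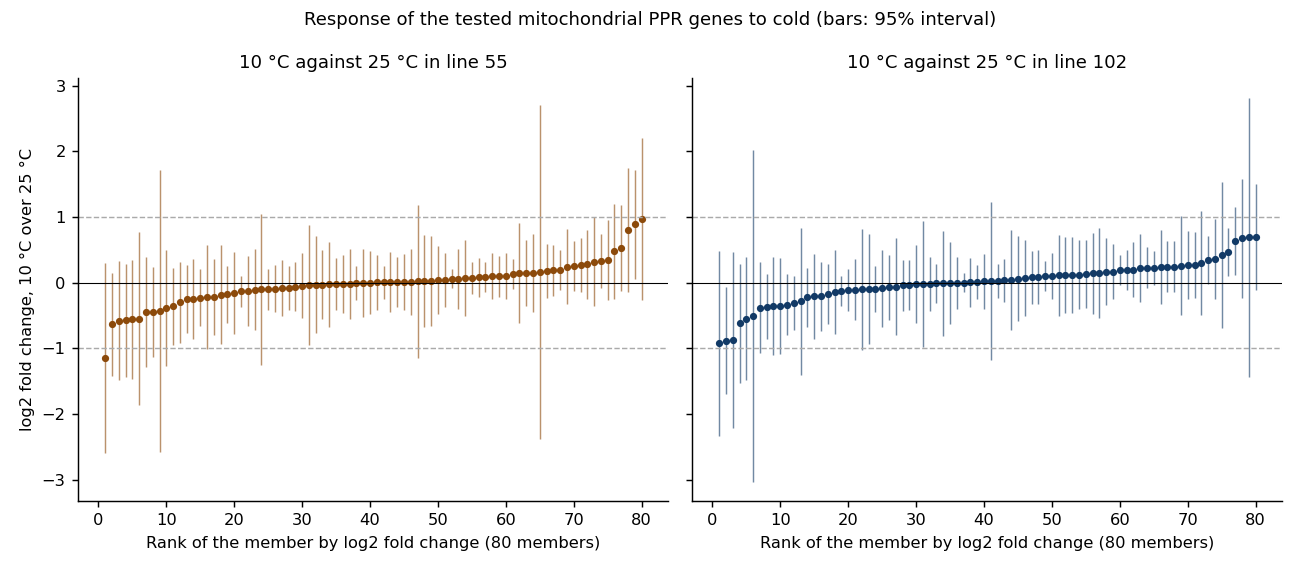
Log2 fold change of 10 °C over 25 °C for the 80 tested members in line 55 (left) and line 102 (right), each ordered by size, with the 95% interval from edgeR and dashed lines at 2-fold. The points run from -1.15 to 0.97 in line 55 and from -0.93 to 0.69 in line 102, and no member passed the adjusted threshold.

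The members with an unadjusted p-value under 0.05 in edgeR were LOC103649522, LOC103650263 and LOC103641135. LOC103649522 (At1g22960), on the unplaced sequence, had 0.438, 0.684 and 0.559 FPKM in the CT_55 libraries, 2.37, 1.68 and 0.959 in those of CT_102, 0.956, 0.702 and 1.49 in those of LT_55 and 0.720, 0.952 and 0.997 in those of LT_102. Line 102 was above line 55 at 25 °C without overlap (1.49, SE 0.38; edgeR, adjusted p = 0.0050), and the lines overlapped at 10 °C (-0.29, SE 0.37). The change in the cold was 0.89 in line 55 and -0.89 in line 102. The difference of the 2 responses, tested as the interaction, was -1.77 (SE 0.53; edgeR, unadjusted p = 0.006, adjusted p = 0.54). It did not pass the adjusted threshold, and its size was between -1.41 and -2.04 when each library in turn was left out.

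LOC103650263, the member most above in line 102 at 10 °C, had a change in the cold of 0.46 in line 102 (edgeR, adjusted p = 0.26), and LOC103641135 had 0.63 (edgeR, adjusted p = 0.27). For the interaction, 0 of the 80 members and 0.00435 percent of all tested genes (1 gene) were called, and 1 member passed at an unadjusted p-value in edgeR and 2 in DESeq2. Besides LOC103649522, the smallest p-values among members with a mean of at least 1 FPKM belonged to LOC100192040 (1.14), LOC103650263 (0.45) and LOC103632023 (0.43) on the positive side and LOC103639737 (-0.49) and LOC103641252 (-0.31) on the negative side. None of them passed the adjusted threshold.

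Other genes of organelle RNA metabolism are given as a frame for the members, from lists made from description words. Of the 35 tested chloroplastic PPR genes, 5 were lower in line 102 and 14 higher at each temperature, and of the 158 PPR genes without a named organelle, 25 were lower and 42 higher. The higher calls are 40% and 26.6% of these lists and the lower calls 14.3% and 15.8%, beside 24.3% and 23.8% of all tested genes at 25 °C, and the difference between lists was not tested. Of 12 tested mitochondrial intron splicing factors, 2 were lower and 7 higher at 25 °C, and 2 and 8 at 10 °C. Of 27 genes for mitochondrial translation, 2 were lower and 12 higher at 25 °C, and 2 and 13 at 10 °C. The higher calls at 25 °C are 58.3% and 44.4% of these lists and the lower calls 16.7% and 7.41%, also not tested against other genes. Of 17 mTERF genes, which encode another family of organelle nucleic-acid binding proteins, 2 were lower and 4 higher, and 3 and 3. Of 7 Rf1-like genes, which are related to restorers of fertility, 2 were lower and 2 higher, and 3 and 2. The 3 tested MORF genes, partners of PPR editing factors, were not called. Of 5 mitochondrial ribosomal protein genes 2 were lower and 1 higher at each temperature. Of 18 mitochondrial import genes 5 were lower and 4 higher at 25 °C, and 8 and 4 at 10 °C. In the cold, 1 import gene was lower in line 102, and no other gene of these lists was called in either line.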

How the data were processed

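Embryo poly(A) RNA of 12 libraries was used, with groups taken from the sample titles. The authors aligned reads to the B73 RefGen_v4 genome, and their deposited table gives each gene a read count in every library. It also gives FPKM, which the authors computed from the counts. The submitters' processing notes name HISAT, StringTie and edgeR, without versions. Reads of both lines were counted on gene models of one reference line, and the strand setting is not given in the sources used here.

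Counts were tested with edgeR's quasi-likelihood test (edgeR 4.0.16, limma 3.58.1, R 4.3.3) on the 22985 genes that reached 0.5 FPKM in 3 or more libraries, with TMM normalization, 4 groups in one model and no replicate block. The log2 fold changes were computed from the deposited counts, SE is the log2 fold change divided by the square root of F, and the p-values, also from the deposited counts, were adjusted after Benjamini and Hochberg over every gene tested. Line differences used the fold and p thresholds of the study, and cold responses and the interaction used the adjusted p-value. The procedure was tested on simulated data. Members named in the text are the 5 largest called, non-overlapping differences in each direction of each comparison with a mean of at least 1 FPKM, the 3 smallest interaction p-values in each direction, the 5 highest mean FPKM and genes of known role. Others were chosen after their values were seen. The members and lists were chosen with earlier results of these data known. Alternatives used DESeq2 1.42.0, limma on log2(FPKM + 0.1) or log2(FPKM + 1), median ratio scaling, other filters and thresholds, counts divided by 4, the 2 groups alone, a replicate block, and leaving out each library. Sequences are not printed here. Floors cover counting error only. The intervals were built from the SE of edgeR's quasi-likelihood test, which also takes in the spread between replicates. Figures were drawn with matplotlib 3.10.9 in Python 3.11.15.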

Additional observations from a re-analysis of the deposited data

How the results depend on the processing

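The counts of members called were within 1.5 times the values above under other filters, scalings, tools and depth. With a fold threshold of 2, 5 were lower and 12 higher at 25 °C, and 5 and 11 at 10 °C. With an unadjusted p-value, 1 was higher in the cold in line 55, 1 lower and 2 higher in line 102, and 1 lower for the interaction. Leaving out each library gave 7 to 9 lower and 17 to 19 higher at 25 °C, 9 to 11 and 19 to 25 at 10 °C, and 0 for cold and interaction. In all 12 such fits 23 of the 27 members called at 25 °C and 26 of the 30 at 10 °C stayed called. The replicate block gave 8 lower and 18 higher at 25 °C and 11 and 20 at 10 °C, and 0 for cold and interaction. Deviations from the group means had a mean correlation of 0.0334 for equal replicate numbers, over 0.1 in 2 of 18 pairs. Both pairs joined CT_55 and LT_55, in replicates 2 (0.19) and 3 (0.29), where the crossed pairs gave -0.23 and -0.27. Replicate 1 gave -0.01 there. The samples of line 55 were thus not shown to be unpaired. Uncalled members changed sign when 1 library was left out. At 25 °C their values ran from -0.38 to 0.27 for LOC103627548, from -0.0796 to 0.112 for LOC103646227, from -0.13 to 0.26 for LOC103650031 and from -0.25 to 0.12 for LOC103654790. At 10 °C they ran from -0.38 to 1.05 for LOC103632127 and from -0.49 to 0.0865 for LOC103649522. The cause was not tested. With counts divided by 4, 8 were lower and 20 higher at 25 °C, and 11 and 22 at 10 °C. A pseudocount of 1 ended the calls of LOC103626265 (0.45 at 25 °C), LOC103630373 (-0.39 at 10 °C), LOC103651600 (-0.67 at 10 °C) and LOC103651543 (0.50 at 25 °C and 0.34 at 10 °C).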
